A study of Mus musculus with 5 samples.

Results

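The lymphoid genes described here were 45 listed mouse genes of B, T and natural killer (NK) cells and of the progenitors before them, of which 41 had an array feature naming that gene alone, among 22180 genes measured. By role the measured genes were 10 of 12 listed early lymphoid genes, 11 of 11 B cell genes, 11 of 13 T cell genes, 7 of 7 NK cell genes and 2 of 2 broad lymphocyte genes (Ltb and Cd52). Rag1 was named only together with another gene, and Tcf7, Cd247 and Lck were not analysed here. Where a gene had several features, the one with the highest mean over the 5 arrays was used.

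The cells were hematopoietic stem cells (HSCs) of C57BL/6 mice, the rare marrow cells from which all blood lineages are renewed. A mixed stem and progenitor population was kept for 24 h with 5 µM all-trans retinoic acid (ATRA), a vitamin A metabolite that activates the nuclear receptors of the RAR family, or with its solvent DMSO as the control, and HSCs were sorted only after the culture. There were 2 Affymetrix arrays of ATRA cells and 3 of DMSO cells. The labels give no sex, age or number of animals and do not say whether replicates came from separate cultures, so the p-values reflect only how far these arrays differ, and that variation may be technical. RNA of a sorted pool was measured, and fewer cells of a type cannot be told apart from less RNA per cell.

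Lymphocytes arise from HSCs through progenitors that switch on lineage genes step by step. E proteins such as E2A (Tcf3) and zinc finger factors of the Ikaros family prime the lymphoid programme and are already present in stem and progenitor cells, Dntt, Rag1 and Rag2 build antigen receptor genes, and Ebf1 and Pax5 then fix the B lineage as Notch signals, Gata3 and Bcl11b fix the T lineage. CD79 and CD3 proteins are the signalling chains of the antigen receptors, and NK cells use receptors such as NKp46 (Ncr1) and the CD94 (Klrd1) heterodimers. Antigen receptor chains and NK receptors are features of mature lymphocytes rather than of stem cells.

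The values are log2 expression values as deposited. Judged by correlation, the 2 ATRA arrays were less alike (r = 0.73) than the DMSO arrays were among themselves (r = 0.97 to 0.98). ATRA replicate 1 resembled every DMSO array (r = 0.81 to 0.83) more than it resembled ATRA replicate 2. For ATRA replicate 2 the likeness to DMSO was lower, with r from 0.60 to 0.64. The ATRA arrays spanned a narrower range (SD over all features 1.77 in replicate 1 and 1.49 in replicate 2) than the DMSO arrays (1.96 to 1.97), and across all genes the difference between the groups moved with the DMSO value. The median difference of all genes from the DMSO mean was -1.42 in ATRA replicate 1 and -3.23 in ATRA replicate 2 among 466 genes whose DMSO mean lay from 10 to 11. It was 0.30 and 0.76 for the 2790 genes from 4 to 5. Each lymphoid gene called higher or lower below is therefore given with the difference left after this trend on level was removed. For some genes the median of genes of the DMSO step is also given. For the mean of the ATRA arrays that median was 0.56 from 4 to 5, 0.45 from 5 to 6 and 0.14 from 6 to 7. Differences printed without a step median or a trend-removed value are as deposited and are not set against level. In these arrays 7 of the 9 listed HSC markers were measured. Their mean value was 7.73 and 6.86 in the ATRA arrays, against at least 8.79 in each DMSO array, and 4 of the 7 were called lower (Kit, Hlf, Mecom and Fgd5). Their DMSO means lay from 7.71 to 10.94, in the steps from 7 to 8, 8 to 9 and 10 to 11. In these steps 28.1%, 52.4% and 51.7% of all genes were called lower. With the level trend removed, 0 of the 7 were lower (limma, 4 with an unadjusted p under 0.05 in either direction).

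Most lymphoid genes had small, positive differences with ATRA that did not pass the test, and Ltb and Tcf3, 2 of the 3 genes with a DMSO mean above 8, were lower. At a Benjamini-Hochberg adjusted p under 0.05 in limma's test, adjusted across the 22180 genes, 6 of the 41 were higher (Ighm, Klrd1, Cd8b1, Blnk, Cd3g and Lef1), 2 were lower (Ltb and Tcf3) and 33 did not pass. Of all genes, 6.48% were called higher and 15.5% lower, 21.9% in all. The median difference of the 41 was 0.41 on the log2 scale, against 0.16 over all genes. The mean of the 41 was 6.03 and 6.19 in the ATRA arrays and 5.83 to 5.86 in the DMSO arrays. The ATRA pair lay entirely above the DMSO values in 21 of the 41 and entirely below in 3, and in all genes the shares were 33.0% and 29.2%. With a DMSO mean below 6 it lay above in 60.7% of 28 lymphoid genes and in 57.5% of all 9988 genes. The 3 genes below were those with a DMSO mean above 8, where it lay below in 82.0% of all genes. With the level trend removed, 2 of the 41 were higher (Ighm and Nkg7) and 0 lower by limma, where 2.28% of all genes were higher and 1.01% lower (3.28% in all), and 4 and 1 of the 41 had an unadjusted p under 0.05. The median of the 41 in that fit was 0.03, with 21 genes above 0 and 20 below it. No gene of the array passed in limma without DMSO replicate 1, 2 or 3, and 9, 8 and 8 of the 41 then had an unadjusted p under 0.05. For single genes an exact permutation test, two-sided, of 2 against 3 arrays cannot go below p = 0.1.

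**Figure D1:**
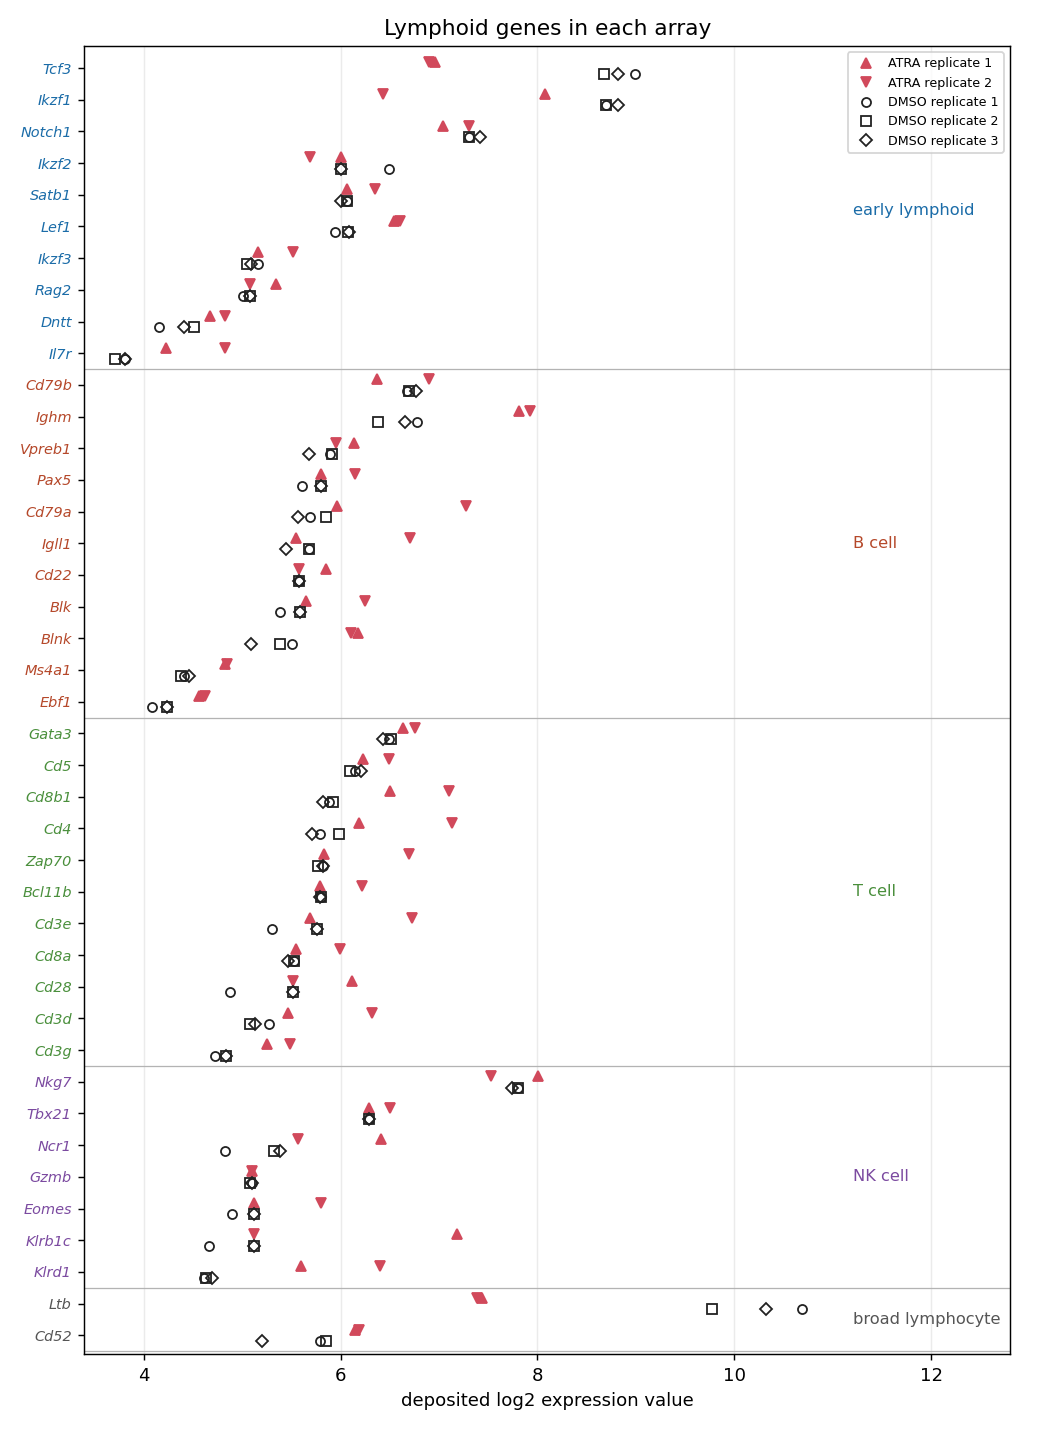
Deposited log2 values (x axis) of the 41 measured lymphoid genes (rows, grouped and coloured by role, ordered by DMSO mean within a role) in each array. Filled triangles are the 2 ATRA arrays and open symbols the 3 DMSO arrays, and the ATRA values of Tcf3 and Ltb lie far below their DMSO values, while most other genes lie between 4 and 7 in all arrays.

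Among the early lymphoid genes, Tcf3 fell and Lef1 rose, and the other 8 did not pass, where 15.5% of all genes were called lower and 6.48% higher. Tcf3 encodes E2A, the E protein that starts lymphoid and B cell gene expression. Its values were 6.96 and 6.89 in the ATRA arrays, against 8.99, 8.68 and 8.82 in the DMSO arrays. The ATRA values nearly coincide and lie well below all DMSO values. Tcf3 fell by 1.90 on the log2 scale, which is 3.74-fold lower (SE 0.14, limma adjusted p = 0.00697). The median of the 2582 genes of its DMSO step, from 8 to 9, was -1.33, and 52.4% of them were called lower. Removing the level trend left a difference of -0.33 (adjusted p = 0.516), the highest of its adjusted p-values over 14 alternatives, which went down to 0.00386. Without 1 of the DMSO arrays the difference was -1.98 to -1.82, with adjusted p-values of 0.0605 to 0.0682.

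Ikzf1 encodes Ikaros, a zinc finger factor needed for the lymphoid lineages. Its values were 8.08 and 6.43 in the ATRA arrays, against 8.69, 8.69 and 8.82 in the DMSO arrays. Both ATRA values lie below all DMSO values, but they differ from each other by more than 1 unit, and the difference of -1.48 (SE 0.52, adjusted p = 0.107) did not pass. Without ATRA replicate 1 it was -2.31 and without ATRA replicate 2 it was -0.65, and both passed (adjusted p = 0.00205 and 0.0223) in fits that take the lone ATRA array to vary like the DMSO arrays. Over 14 alternatives the adjusted p reached 0.949, with the level trend removed, where the difference was 0.03.

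The other Ikaros family genes were nearer to their DMSO values. Ikzf2 (Helios) had 6.00 and 5.69 in the ATRA arrays, against 6.50, 6.00 and 6.00 in the DMSO arrays (difference -0.32, SE 0.22, adjusted p = 0.292). Ikzf3 (Aiolos), a factor of later B cell stages, had 5.16 and 5.52 in the ATRA arrays, against 5.16, 5.05 and 5.09 in the DMSO arrays (difference 0.24, adjusted p = 0.267). In both genes the value of ATRA replicate 1 equals that of a DMSO array to the last deposited digit, so the groups overlap. Notch1, the receptor whose signal starts T cell fate, had 7.04 and 7.30 in the ATRA arrays, against 7.30, 7.30 and 7.42 in the DMSO arrays (difference -0.17, adjusted p = 0.35). The median of genes in its DMSO step, from 7 to 8, was -0.64, and with the level trend removed Notch1 differed by 0.35 (adjusted p = 0.323).

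Lef1, a partner of beta-catenin in developing lymphocytes, had 6.55 and 6.60 in the ATRA arrays, against 5.94, 6.07 and 6.08 in the DMSO arrays. The groups do not overlap, and Lef1 rose by 0.54, 1.46-fold (SE 0.12, adjusted p = 0.0396). Its adjusted p was 0.13 to 0.157 without 1 of the DMSO arrays, 0.0552 when genes with 1 shared DMSO value were left out and 0.357 with the level trend removed, which left a difference of 0.24. Il7r, the interleukin-7 receptor chain that early lymphocytes depend on, had 4.22 and 4.83 in the ATRA arrays, against 3.82, 3.71 and 3.82 in the DMSO arrays (difference 0.74, SE 0.22, adjusted p = 0.0736). Dntt, the template-free DNA polymerase of receptor gene joining, had 4.67 and 4.83 in the ATRA arrays, against 4.16, 4.51 and 4.41 in the DMSO arrays (difference 0.39, adjusted p = 0.144). In both genes all ATRA values lie above all DMSO values, as in 33.0% of all genes and 57.5% of those with a DMSO mean below 6. The DMSO means of Il7r and Dntt lay at the 6.64th and 11.6th percentile of all genes, where the median differences of the DMSO steps were 0.59 and 0.56. Rag2, a subunit of the recombinase, and Satb1, a chromatin organizer of lymphoid progenitors, differed by 0.16 each and overlapped between the groups.

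RefSeq promoter windows were found for 30 of the 41 genes, and the 250 bases before the transcript start are shown for the 4 called genes with a single window, because these carry the differences described and share motif letters in part. Searched on both strands were AGGTCA, the core element of retinoic acid receptors, CAGGTG, an E-box bound by E proteins such as E2A, the palindromic E-box CAGCTG, and TGGGAA, the core of Ikaros sites. Different words can overlap at their ends, which none do in the windows shown. Matches are in capitals, spelled as on the strand shown. Of all 32851 windows of this length, 14.0% held AGGTCA, 17.2% CAGGTG, 13.0% CAGCTG and 21.6% TGGGAA. Of the 42 windows of the 30 lymphoid genes, 7 held AGGTCA, 13 CAGGTG, 3 CAGCTG and 9 TGGGAA. The windows with AGGTCA belong to 6 genes (Blnk, Ncr1, Rag2, Satb1, Vpreb1 and Zap70). In build GRCm38.p6 the windows lie at chr10:80433636-80433885 (Tcf3, minus strand), chr17:35194257-35194506 (Ltb, plus strand), chr19:40994222-40994471 (Blnk, minus strand) and chr9:44980432-44980681 (Cd3g, minus strand). The Blnk window holds AGGTCA, spelled TGACCT on the strand shown, and 1 CAGGTG, the Ltb window 1 CAGGTG, and the Cd3g window 2 CAGGTG and 1 TGGGAA. The Tcf3 window holds none of the 4 words. A match of letters is a description of the window and not a measured site.
Tcf3: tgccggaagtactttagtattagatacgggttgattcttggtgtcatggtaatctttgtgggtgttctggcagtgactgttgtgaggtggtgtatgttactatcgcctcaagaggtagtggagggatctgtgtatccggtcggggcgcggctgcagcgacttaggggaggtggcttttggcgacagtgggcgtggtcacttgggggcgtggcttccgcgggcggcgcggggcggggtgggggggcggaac
Ltb: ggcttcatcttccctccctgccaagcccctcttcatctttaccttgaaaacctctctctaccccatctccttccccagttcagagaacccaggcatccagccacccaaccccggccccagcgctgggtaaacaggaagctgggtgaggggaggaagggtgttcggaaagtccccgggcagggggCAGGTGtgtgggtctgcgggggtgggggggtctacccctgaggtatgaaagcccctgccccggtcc
Blnk: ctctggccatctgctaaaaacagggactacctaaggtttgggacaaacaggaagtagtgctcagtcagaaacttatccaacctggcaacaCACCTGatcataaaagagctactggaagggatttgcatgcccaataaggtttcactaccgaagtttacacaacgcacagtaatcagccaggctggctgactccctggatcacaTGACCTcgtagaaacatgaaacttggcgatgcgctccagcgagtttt
Cd3g: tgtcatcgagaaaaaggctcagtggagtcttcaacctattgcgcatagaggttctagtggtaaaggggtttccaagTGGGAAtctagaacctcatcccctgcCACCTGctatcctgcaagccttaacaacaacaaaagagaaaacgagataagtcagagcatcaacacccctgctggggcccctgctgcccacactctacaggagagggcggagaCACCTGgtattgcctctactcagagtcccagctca

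Of Ltb and Cd52, which are used in several lymphocyte types, Ltb fell and Cd52 did not pass. Ltb encodes lymphotoxin beta, a membrane-bound cytokine of the TNF family. Its values were 7.44 and 7.39 in the ATRA arrays, against 10.69, 9.78 and 10.32 in the DMSO arrays. The ATRA arrays nearly coincide, while the DMSO arrays spread over 0.46 (SD, n = 3) and stay far above them. Ltb fell by 2.85, the largest difference among the 41 genes, which is 7.21-fold lower (SE 0.30, adjusted p = 0.00992). The median of the 466 genes of the same DMSO step was -2.35, and 51.7% of them were called lower. ATRA replicate 1 differed from the DMSO mean by -2.83, where those 466 genes had a median of -1.42, and ATRA replicate 2 by -2.87, where they had -3.23. Tested without the level trend, Ltb differed by -0.50 (adjusted p = 0.606), the highest of 14 alternatives, and without 1 of the DMSO arrays by -3.09 to -2.64 (adjusted p = 0.0633 to 0.073). Cd52, a small surface glycoprotein of lymphocytes, had 6.14 and 6.19 in the ATRA arrays, against 5.79, 5.85 and 5.21 in the DMSO arrays (difference 0.55, SE 0.24, adjusted p = 0.162). The median of the 5362 genes of its DMSO step, from 5 to 6, was 0.45. With the level trend removed Cd52 differed by 0.13 (limma adjusted p = 0.79).

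**Figure D2:**
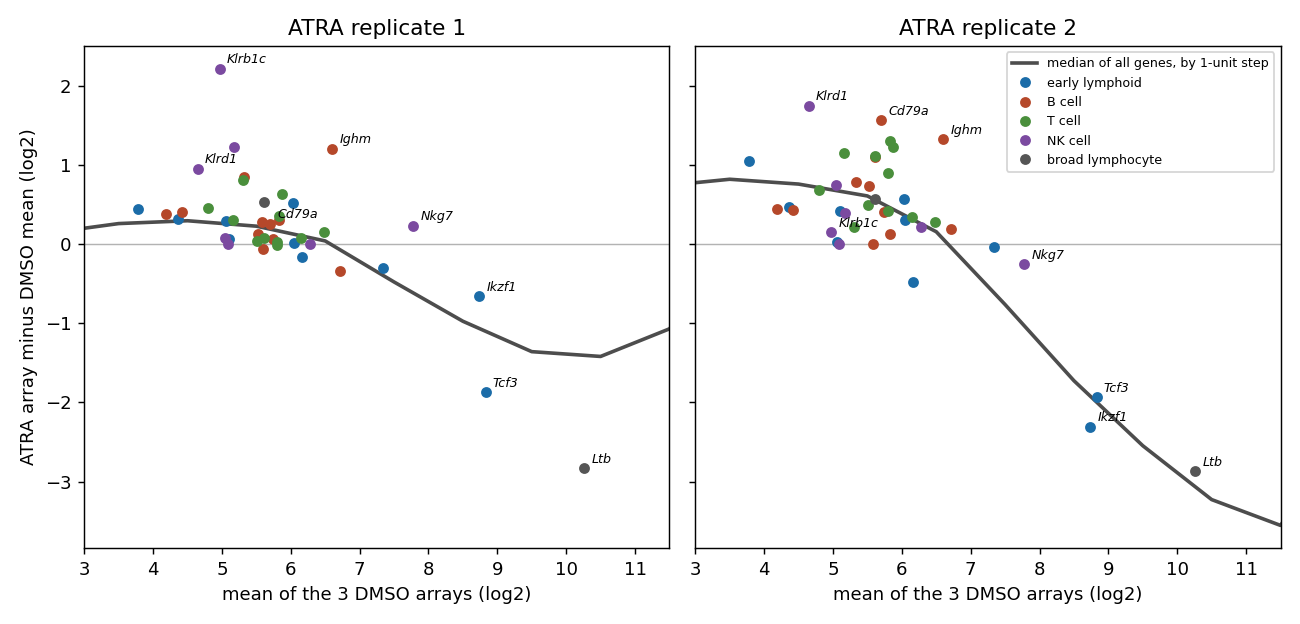
Difference of each ATRA array from the mean of the 3 DMSO arrays (y axis, log2) against that DMSO mean (x axis, log2) for the 41 lymphoid genes, coloured by role, with the left panel for replicate 1 and the right for replicate 2. The line joins the medians of all genes in steps of 1 unit, plotted at mid-step, and it runs through the cloud of lymphoid genes below 7. Tcf3 and Ltb lie under it in replicate 1 and near it in replicate 2.

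Of the 11 B cell genes, Ighm and Blnk rose and 9 did not pass, where 6.48% of all genes were called higher. Ighm, the immunoglobulin mu heavy chain gene, had 7.81 and 7.93 in the ATRA arrays, against 6.77, 6.38 and 6.66 in the DMSO arrays. All ATRA values lie more than 1 unit above all DMSO values. Ighm rose by 1.26, 2.40-fold (SE 0.17, adjusted p = 0.0144), and it was the 1 called gene of the 41 that kept its call and direction with the level trend removed, with a difference of 1.25 (adjusted p = 0.0369). The median of the 4333 genes of its DMSO step, from 6 to 7, was 0.14. Over 14 alternatives the difference lay between 0.60 and 1.75 and 9 of them passed. It did not pass without 1 of the DMSO arrays (adjusted p = 0.0677 to 0.0895), with the replicate number as a block (adjusted p = 0.158) or with its features averaged (difference 0.60, adjusted p = 0.0656).

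That average covers 7 features that name Ighm alone, and which segment of the locus each one reads is not given in the sources used here. All 7 had a positive difference, from 0.27 to 1.26. In a fit over all 41345 features, the one used (17284360) had an adjusted p of 0.0232, another (17284648, with 5.94 and 5.96 in the ATRA arrays against 5.35, 5.19 and 5.24 in the DMSO arrays) had 0.0436, and the other 5 had 0.0943 to 0.394. In feature 17284660 ATRA replicate 1 had 2.45 and ATRA replicate 2 had 4.28, against 2.76, 2.52 and 2.76 in the DMSO arrays, so the ATRA arrays lie on both sides of the DMSO values there.

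**Figure D3:**
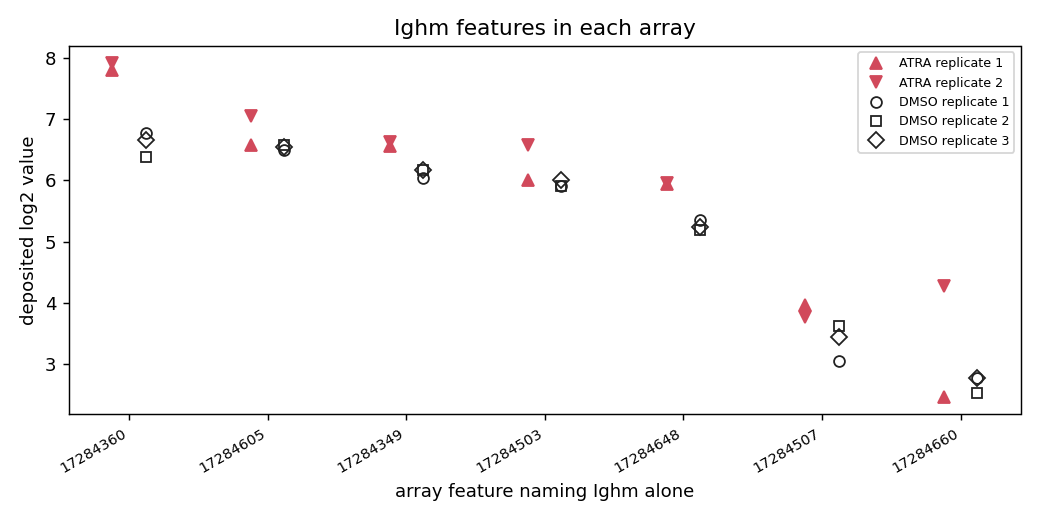
Deposited log2 values (y axis) of the 7 features that name Ighm alone (x axis, by feature number, ordered by mean), with filled triangles for the 2 ATRA arrays and open symbols for the 3 DMSO arrays. The leftmost feature, used for the gene, has the widest gap between the groups, and the rightmost has ATRA values on both sides of the DMSO values.

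Blnk, the adaptor that links the B cell receptor to downstream enzymes, had 6.18 and 6.11 in the ATRA arrays, against 5.51, 5.38 and 5.09 in the DMSO arrays. The groups do not overlap, and Blnk rose by 0.82, 1.76-fold (SE 0.17, adjusted p = 0.0359). The adjusted p was 0.0618 without ATRA replicate 1, 0.0797 without ATRA replicate 2, 0.096 to 0.135 without 1 of the DMSO arrays and 0.412 with the level trend removed (difference 0.35). The signalling chains of the B cell receptor differed in their pattern. Cd79a had 5.96 and 7.27 in the ATRA arrays, against 5.69, 5.85 and 5.57 in the DMSO arrays (difference 0.91, SE 0.42, adjusted p = 0.176). Cd79b had 6.37 and 6.90 in the ATRA arrays, against 6.67, 6.69 and 6.77 in the DMSO arrays (difference -0.08, adjusted p = 0.752). For both chains ATRA replicate 2 was the higher of the ATRA arrays, by more than 1 unit for Cd79a, and for Cd79b the ATRA values fall on both sides of the DMSO values.

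Igll1, part of the surrogate light chain of pre-B cells, had 5.54 and 6.71 in the ATRA arrays, against 5.68, 5.68 and 5.44 in the DMSO arrays (difference 0.52, adjusted p = 0.305). Only replicate 2 of ATRA was outside the DMSO range. The other 6 B cell genes were the lineage factors Ebf1 and Pax5, the surrogate light chain gene Vpreb1, the receptor-associated kinase gene Blk and the surface genes Ms4a1 (CD20) and Cd22. Their values were 4.57 to 6.25 in the ATRA arrays and 4.08 to 5.91 in the DMSO arrays. Their differences were 0.14 to 0.43, with adjusted p-values from 0.057 (Ms4a1) to 0.418 (Cd22), and 4 of the 6 lay above all DMSO values in both ATRA arrays. All 6 had a DMSO mean below 6, where 57.5% of all genes did likewise. Cd22 had the same deposited value, 5.58, in all 3 DMSO arrays and in ATRA replicate 2, and 5.86 in ATRA replicate 1.

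Of the 11 T cell genes, Cd8b1 and Cd3g rose and 9 did not pass, and all 11 had a positive difference. Over all genes 6.48% were called higher and 57.9% had a positive difference. All but Gata3 and Cd5 had a DMSO mean below 6, where 94.5% of all genes had a positive difference. Cd8b1, the beta chain of the CD8 coreceptor, had 6.51 and 7.10 in the ATRA arrays, against 5.88, 5.93 and 5.82 in the DMSO arrays. It rose by 0.93, 1.91-fold (SE 0.21, adjusted p = 0.0448), with no overlap of the groups. Removing the level trend left 0.58 (adjusted p = 0.119), and without 1 of the DMSO arrays its adjusted p was 0.15 to 0.166. Its partner chain Cd8a had 5.54 and 6.00 in the ATRA arrays, against 5.52, 5.52 and 5.47 in the DMSO arrays, and did not pass (difference 0.27, adjusted p = 0.272). Cd4, the other coreceptor, had 6.19 and 7.13 in the ATRA arrays, against 5.80, 5.99 and 5.71 in the DMSO arrays (difference 0.83, SE 0.32, adjusted p = 0.127). In all 3 coreceptor genes ATRA replicate 2 was the higher, and the groups did not overlap. Their DMSO means lay below 6, where both ATRA values were above all DMSO values in 57.5% of all genes.

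The CD3 chains carry the signal of the T cell receptor. Cd3g had 5.26 and 5.49 in the ATRA arrays, against 4.73, 4.84 and 4.84 in the DMSO arrays, and rose by 0.57, 1.48-fold (SE 0.13, adjusted p = 0.0462). The median of the 2790 genes of its DMSO step was 0.56, and with the level trend removed Cd3g differed by 0.05 (adjusted p = 0.854). Its adjusted p was 0.152 to 0.17 without 1 of the DMSO arrays and 0.0579 when genes with 1 shared DMSO value were left out. Cd3d had 5.47 and 6.32 in the ATRA arrays, against 5.27, 5.08 and 5.13 in the DMSO arrays (difference 0.73, SE 0.29, adjusted p = 0.132). Cd3e had 5.69 and 6.73 in the ATRA arrays, against 5.31, 5.76 and 5.76 in the DMSO arrays (difference 0.60, SE 0.37, adjusted p = 0.255). The groups overlap for Cd3e and not for Cd3d.

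Gata3, a transcription factor of early T cells, had 6.63 and 6.76 in the ATRA arrays, against 6.49, 6.51 and 6.43 in the DMSO arrays (difference 0.22, adjusted p = 0.215). A second feature of Gata3 had a difference of 0.29, in the same direction. Of the remaining T cell genes, Cd28, a costimulatory receptor, differed by 0.51, Zap70, the kinase recruited to CD3, by 0.46, Cd5, a surface inhibitor, by 0.21, and Bcl11b, the factor that completes T cell commitment, by 0.21. None of these 4 passed, and their adjusted p-values, with that of Cd8a, lay between 0.248 and 0.348. Bcl11b had 5.79 and 6.22 in the ATRA arrays, against 5.80 in each of the DMSO arrays, so that ATRA replicate 2 alone stood apart. Cd28 had 6.11 and 5.52 in the ATRA arrays, against 4.88, 5.52 and 5.52 in the DMSO arrays, so ATRA replicate 1 lay above and DMSO replicate 1 below the 3 arrays that share a value.

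Of the 7 NK cell genes, Klrd1 rose and 6 did not pass, where 6.48% of all genes were called higher. Klrd1, the CD94 chain that pairs with NKG2 receptors, had 5.60 and 6.40 in the ATRA arrays, against 4.61, 4.63 and 4.70 in the DMSO arrays. It rose by 1.35, 2.55-fold (SE 0.27, adjusted p = 0.033), the largest positive difference of the 41. Both ATRA values lie above all DMSO values, by different distances. With the level trend removed the difference was 0.82 (adjusted p = 0.0666), and after cyclic loess normalization it was 0.83 and passed (adjusted p = 0.0425). Without 1 of the DMSO arrays its adjusted p was 0.131 to 0.136, and over 13 alternatives it reached 0.167.

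Klrb1c and Ncr1, also NK receptor genes, had their higher ATRA value in replicate 1. Klrb1c (NK1.1) had 7.19 and 5.12 in the ATRA arrays, against 4.67, 5.12 and 5.12 in the DMSO arrays (difference 1.18, SE 0.66, adjusted p = 0.232). ATRA replicate 1 stood far above every other array, and ATRA replicate 2 had the same deposited value as DMSO replicates 2 and 3. Without ATRA replicate 2 the difference was 2.22 (adjusted p = 0.0236) and without ATRA replicate 1 it was 0.15 (adjusted p = 0.665), where the DMSO arrays alone give the spread. Ncr1 had 6.41 and 5.57 in the ATRA arrays, against 4.83, 5.32 and 5.38 in the DMSO arrays (difference 0.81, SE 0.33, adjusted p = 0.143). Both ATRA values lie above all DMSO values, and replicate 1 was the higher ATRA array, opposite to Klrd1 and to the CD3 and coreceptor genes.

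Among the factors and granule genes of NK cells, Eomes, a T-box factor, had 5.12 and 5.80 in the ATRA arrays, against 4.90, 5.12 and 5.12 in the DMSO arrays (difference 0.41, adjusted p = 0.245). Tbx21 (T-bet), its relative, had 1 shared value of 6.29 in the 3 DMSO arrays and ATRA replicate 1, and 6.50 in ATRA replicate 2. Gzmb, the granzyme B gene, lay between 5.08 and 5.10 in all 5 arrays. Nkg7, a granule membrane protein gene with a bright feature in DMSO, had 8.01 and 7.53 in the ATRA arrays, against 7.80, 7.80 and 7.74 in the DMSO arrays (difference -0.01, SE 0.18, adjusted p = 0.969). The median of the 3409 genes of its DMSO step was -0.64, and 28.1% of these were called lower. With the level trend removed Nkg7 was higher by 0.85 (adjusted p = 0.0394), and after cyclic loess normalization by 0.89 (adjusted p = 0.0192). The ATRA arrays lie on opposite sides of the DMSO values: without ATRA replicate 1 the difference was -0.25 (adjusted p = 0.0227) and without ATRA replicate 2 it was 0.23 (adjusted p = 0.044), with the spread taken from the DMSO arrays alone. Without 1 of the DMSO arrays its adjusted p was 0.934 or higher.

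**Figure D4:**
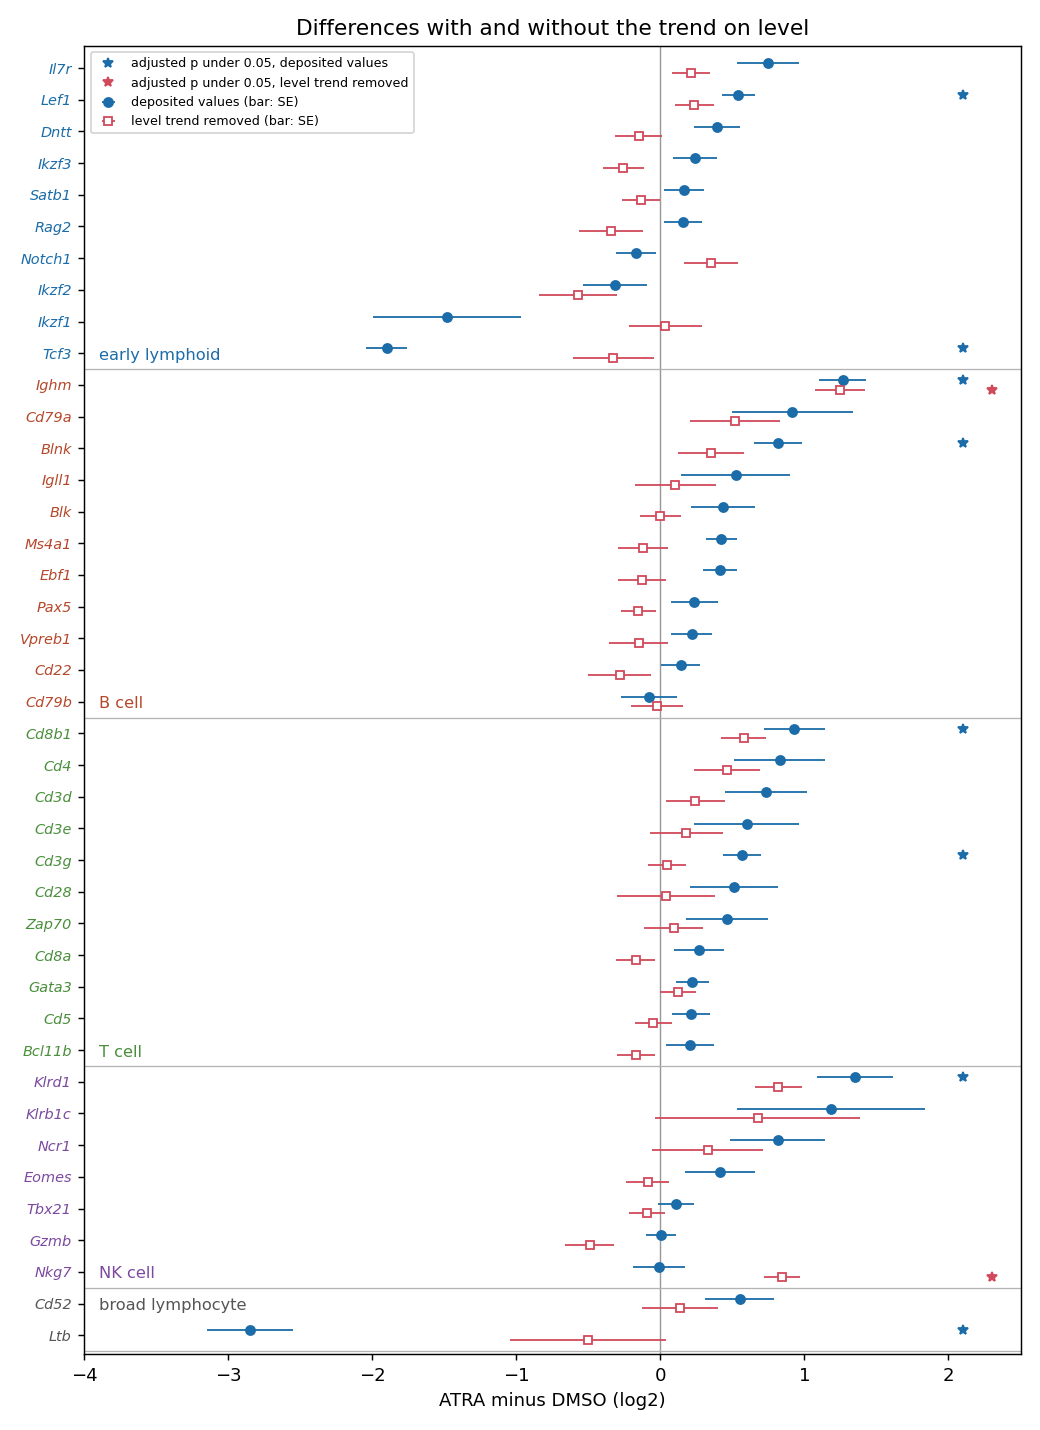
ATRA minus DMSO difference (x axis, log2) of the 41 lymphoid genes by role, as deposited (filled circles) and with the level trend removed (open squares), with bars for the SE and stars at the right for an adjusted p under 0.05 in each fit. Ighm has stars in both fits, Nkg7 with the trend removed only, and the differences of Tcf3, Ikzf1 and Ltb shrink most when the trend is removed.

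Early lymphoid genes were set against the 29 B, T and NK genes, called mature here as a list name. That list also holds the surrogate light chain genes Igll1 and Vpreb1 and the lineage factors Ebf1, Pax5, Gata3 and Bcl11b. The early list holds Ikzf3, a factor of later B cell stages. The lists are therefore not a strict contrast of maturity. Of 10 early genes, 1 was higher, 1 lower and 8 did not pass, with a median difference of 0.16, the same as over all genes. Of 29 mature genes, 5 were higher, 0 lower and 24 did not pass, with a median of 0.43. By limma 7 of the 29 had an unadjusted p under 0.05, none of them lower. Over all genes 6.48% were called higher and 15.5% lower. The medians were 0.04 and 0.17 for early genes in ATRA replicates 1 and 2, and 0.26 and 0.44 for mature genes. The difference was positive in 6 of 10 early genes and in 27 of 29 mature genes, against 57.9% of all genes. The lists also differed in the signal of their features, with a median DMSO mean of 6.04 for early and 5.60 for mature genes and a highest one of 8.83 (Tcf3) and 7.78 (Nkg7). Among genes with a DMSO mean below 6, the median was 0.31 for 4 early genes, 0.51 for 23 mature genes and 0.49 for all 9988 genes, and all 28 lymphoid genes there, Cd52 included, had a positive difference, as had 94.5% of all genes. From 6 upwards it was -0.24 for 6 early and 0.16 for 6 mature genes, which reached DMSO means of 8.83 and 7.78. The medians of all genes there fell with level, from 0.14 (6 to 7) to -0.64 (7 to 8) and -1.33 (8 to 9). With the level trend removed, these 6 early and 6 mature genes had medians of -0.05 and 0.05. Below 6, 4 of the 23 mature and 0 of the 4 early genes were called higher, as were 1173 of all 9988 genes. None of these mature and early genes and 3 of the 9988 were called lower. With the level trend removed the medians over the full lists were -0.14 for the 10 early genes, 0.05 for the 29 mature genes and 0.02 for all genes. No test of early against mature genes was made.

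Exact ties between arrays were common. In 23 of the 41 genes at least 1 pair of arrays shared a value to the last deposited digit, against 47.8% of all genes. In 12 of the 41 the value of an ATRA array equalled that of a DMSO array, as in 4706 of all 22180 genes. Cd22 and Tbx21 had 1 value in all 3 DMSO arrays, as had 1435 of all genes. In 28 of the 41 ATRA replicate 2 was the higher of the ATRA arrays, as in 12054 of all 22180 genes. With a DMSO mean below 6 it was the higher in 20 of 28 lymphoid genes and in 7429 of all 9988 genes. In 5 of the 41 the ATRA arrays differed by more than 1 unit (Ikzf1, Cd79a, Igll1, Cd3e and Klrb1c), and such gaps were not counted over all genes.

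Of 45 measured genes (53 listed) in a further list on lymphoid development and antigen receptor signalling, 0 were higher, 7 lower and 38 did not pass (by limma, 19 had an unadjusted p under 0.05). The 7 are 15.6% of the list, against 15.5% of all genes called lower, so the count is no result about this list. Their median difference was -0.11 and their median DMSO mean 6.80. Myb, a factor of progenitors and early lymphocytes, had 7.98 and 5.76 in the ATRA arrays, against 10.43, 10.42 and 10.31 in the DMSO arrays, and fell by 3.52 (SE 0.68, adjusted p = 0.0323). Plcg2, the phospholipase downstream of the B cell receptor, had 7.13 and 6.08 in the ATRA arrays, against 9.44, 9.32 and 9.56 in the DMSO arrays, and fell by 2.84 (adjusted p = 0.0125). Both also passed with the level trend removed, with differences of -1.11 and -0.90 (adjusted p = 0.0477 and 0.0478). Cd27, a TNF receptor family member of progenitors and lymphocytes, fell by 1.64 and Plcg1, the phospholipase of T cell receptor signalling, by 1.06. Cd37, Flt3 and Syk fell by 0.99, 0.75 and 0.72, and with the trend removed these 5 did not pass. All 7 calls were lost without any 1 of the DMSO arrays, as for all genes.

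Markers of other lineages moved as follows, and their part in the lymphoid differences was not tested. The mean of the 4 measured B cell markers was 5.74 and 6.29 in the ATRA arrays and 5.60 to 5.68 in the DMSO arrays, with 0 of 4 called. For 4 T cell markers it was 5.49 and 6.13 in the ATRA arrays and 5.21 to 5.30 in the DMSO arrays, with Cd3g called higher. For 5 NK cell markers it was 6.12 and 5.88 in the ATRA arrays and 5.06 to 5.32 in the DMSO arrays, with Klrd1 called higher. For 9 neutrophil and monocyte markers it was 6.42 and 6.16 in the ATRA arrays and 5.84 to 6.19 in the DMSO arrays, with S100a9 called higher (0.81). For 2 erythroid markers it was 6.18 and 7.10 in the ATRA arrays and 6.79 to 7.01 in the DMSO arrays, and for 5 megakaryocyte and platelet markers 7.69 and 7.77 against 8.20 to 8.37, with Itga2b called lower. Without the level trend Itga2b differed by -0.24 (adjusted p = 0.751), Pf4 was called higher (2.03, adjusted p = 0.0284) and 4 of these 5 markers were above 0, with a median of 0.21. No marker is listed at 0, a value this scale does not reach.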

How the data were processed

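RNA of sorted HSCs was measured on 5 Affymetrix arrays, 2 for ATRA and 3 for DMSO, grouped by the sample titles. The authors deposited log2 expression values, and RMA, limma 3.28.20 and oligo 1.36.1 are the tools named in the submitters' processing notes. What each did, and the array annotation and build, is not given in the sources used here. Per the labels' protocols, the sort followed the treatment and biotin-labelled cRNA was hybridised.

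Features were named through the platform annotation, with symbols updated by gene identifier in RefSeq's table of assembly GRCm38.p6 (23328 of 23521 features with 1 gene matched). Features naming several genes (1814) or none (16010) of the 41345 were not used, and no filter on low values was set. ATRA was compared with DMSO by limma 3.58.1 (R 4.3.3), lmFit and eBayes, two-sided, with Benjamini-Hochberg adjustment over 22180 genes. The number of arrays limits the precision. To remove the level trend, a loess curve (span 0.3) of each array's difference from the DMSO mean on that mean was subtracted. The procedure was also run on simulated data in which both groups had the same spread. That run does not cover the unequal likeness of the ATRA and the DMSO arrays. Replicate numbers 1 and 2 are shared by the groups. Deviations from the group means correlated at 0.13 (ATRA 1 with DMSO 1) and 0.10 (ATRA 2 with DMSO 2). For unlike numbers they correlated at -0.10 (ATRA 1 with DMSO 2) and -0.13 (ATRA 2 with DMSO 1). With 2 ATRA arrays the deviations of one mirror those of the other, so these values cannot decide whether the samples are paired.

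The members and the lists were chosen with earlier results of these data known. Of the members, full values are given for those past the threshold, the 8 with the highest DMSO mean and the 4 largest differences in each direction in each role. Some other members' values were added after they were seen.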

Additional observations from a re-analysis of the deposited data

How the results depend on the processing

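With 2 and 3 arrays few settings leave the calls as they are. Of all genes, 3083 were higher at an adjusted p under 0.1. With array medians subtracted 560 were higher, with cyclic loess 771 higher and 1504 lower, with dim genes left out 931 higher, with the level trend removed 505 higher and 223 lower, and with quantile normalization 439 higher and 1743 lower. Their median difference was -0.11, -0.05, -0.30, 0.022 and -0.028 in the same order, and 0.18 without the genes that have 1 value in all DMSO arrays, an alternative chosen after seeing the data. With the replicate number as a block 0 genes were higher and 0 lower (limma, 5412 at an unadjusted p under 0.05), so 0 early genes and 0 mature genes passed in either direction. The numbers are not shown to pair the samples. Without 1 array, 0 to 7424 genes were higher and 0 to 6783 lower, with a median of 0.043 to 0.17. The counts of 0 arise without any 1 of the DMSO arrays, where 5991, 6065 and 5907 genes had an unadjusted p under 0.05. The highest arise without ATRA replicate 1, in a fit that takes the lone ATRA array to vary like the DMSO arrays.

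Of the early genes, 2 were higher at an adjusted p under 0.1 and 0 with array medians subtracted, cyclic loess, the level trend removed, quantile normalization or genes with 1 DMSO value left out. With cyclic loess or the level trend removed, 0 early genes were lower. Without 1 array 0 to 4 were higher and 0 to 2 lower. Their median was -0.11 with medians subtracted, -0.24 with cyclic loess, -0.24 with dim genes left out, -0.14 with the trend removed and -0.12 with quantile normalization, and 0.041 to 0.17 without 1 array. Of the mature genes, 2 were higher with medians subtracted, 3 with cyclic loess, 3 with dim genes left out, 2 with the trend removed and 1 with quantile normalization, and without 1 array 0 to 19 were higher and 0 to 1 lower. Their median was 0.16, 0.045, 0.56, 0.048 and 0.155 in that order, 0.46 without genes of 1 DMSO value and 0.26 to 0.45 without 1 array.

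Single genes also changed sign, and the cause was not tested. With array medians subtracted 12 did so, with differences of Bcl11b -0.065, Cd22 -0.13, Cd5 -0.058, Cd8a -0.0040, Gata3 -0.051, Gzmb -0.27, Ikzf3 -0.031, Pax5 -0.034, Rag2 -0.11, Satb1 -0.11, Tbx21 -0.16 and Vpreb1 -0.054. With cyclic loess these were 18: Bcl11b -0.23, Blk -0.036, Cd22 -0.34, Cd5 -0.10, Cd8a -0.21, Dntt -0.15, Ebf1 -0.12, Eomes -0.10, Gzmb -0.52, Ikzf3 -0.28, Ms4a1 -0.11, Nkg7 0.89, Notch1 0.31, Pax5 -0.21, Rag2 -0.36, Satb1 -0.20, Tbx21 -0.15 and Vpreb1 -0.21. With the level trend removed they were 19: Bcl11b -0.17, Blk -0.0022, Cd22 -0.28, Cd5 -0.051, Cd8a -0.17, Dntt -0.15, Ebf1 -0.13, Eomes -0.090, Gzmb -0.49, Ikzf1 0.034, Ikzf3 -0.26, Ms4a1 -0.12, Nkg7 0.85, Notch1 0.35, Pax5 -0.15, Rag2 -0.34, Satb1 -0.14, Tbx21 -0.094 and Vpreb1 -0.15. With quantile normalization they were 15: Bcl11b -0.082, Cd22 -0.24, Cd8a -0.079, Dntt -0.046, Ebf1 -0.033, Gzmb -0.42, Ikzf3 -0.17, Ms4a1 -0.033, Nkg7 0.59, Notch1 0.25, Pax5 -0.072, Rag2 -0.28, Satb1 -0.066, Tbx21 -0.043 and Vpreb1 -0.095. Without 1 array the difference ranged from -0.34 to 0.19 for Cd79b, from -0.0074 to 0.42 for Bcl11b, from -0.060 to 1.10 for Igll1 and from -0.25 to 0.23 for Nkg7. Of the 41 genes, 28 lie below a DMSO mean of 6, where the median of all features is 6.07, and no detection level was measured.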
